A study of Sus scrofa with 2 samples.

Results

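The insulin-like growth factor (IGF) system genes were followed across the somatic cells of 2 pig antral follicles. The list holds 10 genes: the ligands IGF1 and IGF2, the receptors IGF1R and IGF2R, the binding proteins IGFBP2, IGFBP3, IGFBP4 and IGFBP5, the protease PAPPA and its inhibitor STC1. Of these, 9 were matched among the 22342 genes of the deposited gene list. The list gave 8 of them by symbol, and a reference table of the same assembly gave IGF1R. No source paired IGF2 with an identifier of the list, so IGF2 was not analysed here.

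Each follicle was measured once by 10x Genomics single-cell RNA sequencing, which counts transcripts by their 3′ ends with unique molecular identifiers (UMIs), so follicle 1 and follicle 2 are 2 single libraries with no replicate. Both came from the same 210-day-old pubertal Landrace × Yorkshire pig, which had received pregnant mare serum gonadotropin to make its follicles grow, and both measured more than 7 mm across. The follicles were punctured, the cumulus-oocyte complexes were picked out and treated with hyaluronidase, and the granulosa cells in the fluid were collected. The comparison asks how the cells of 2 follicles of like size differ, and the libraries share the animal, the hormone treatment and the collection.

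In the follicle, IGFs act with follicle-stimulating hormone on granulosa cells. IGF1R is the signalling receptor, IGF2R binds IGF2 and carries it to lysosomes, and the binding proteins hold the ligands away from the receptor. PAPPA cuts IGFBP4 and, among others, IGFBP5, which frees the ligand, and stanniocalcins such as STC1 block PAPPA.

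Barcodes with 2000 to 5000 genes and under 7% mitochondrial UMIs were taken as cells, 9362 in follicle 1 and 7843 in follicle 2. They held 111226504 and 108920601 UMIs, with medians of 11254.5 and 13902 per cell, and 18 of their barcodes occurred in both libraries. Of 8 matched granulosa markers, 7 had UMIs in follicle 1 and 8 in follicle 2, at a summed level of 29399 and 30889 counts-per-million of UMIs (CPM). Of 11 theca or stroma markers all had UMIs, at 318 and 515 CPM in sum. INSL3 alone gave 307 and 496 CPM of these. Immune markers summed to 13.7 and 14.2 CPM, and 5 and 25 deposited barcodes carried at least 10 UMIs over at least 3 of them. Those barcodes held 127 and 131 CPM of IGFBP2 and 2586 and 6557 CPM of the granulosa gene INHA. They serve below as a rough measure of free RNA. Their medians were 13162 and 4143 UMIs, and 2 and 9 of them were among the cells used. Free RNA was not told apart there from barcodes that hold more than 1 cell or from transcripts of the immune cells. All levels are CPM over summed cells, ranges in parentheses are 95% intervals, and these cover counting error only. A gene was called past the fold where a ratio was at least 2 or at most 0.5 and its interval excluded 1. No test between follicles can be made with 1 library each.

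Over all cells, and among the 7 members with at least 200 UMIs in a follicle, STC1 had the ratio farthest from 1 between the follicles and IGF1 came next, while the receptors, IGFBP2, IGFBP4 and PAPPA had ratios between 0.797 and 1.04. IGFBP3 and IGFBP5 fell below that number of UMIs and are described further on. Of the 7, 1 was called, STC1, lower in follicle 2. Of 10049 genes so tested, 2.49% were called in either direction, 1.82% lower and 0.667% higher in follicle 2. The median log2 ratio of follicle 2 to follicle 1 was -0.31 over the 7 members and 0.00 over all genes, where the median size of the log2 ratio was 0.12. Without the cells of cluster 4, described below, IGF1 was called too, and 2 of 7 members were past the fold against 2.17% of all genes. Without cluster 2 as well, STC1 alone was called, against 1.43% of all genes.

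**Figure D1:**
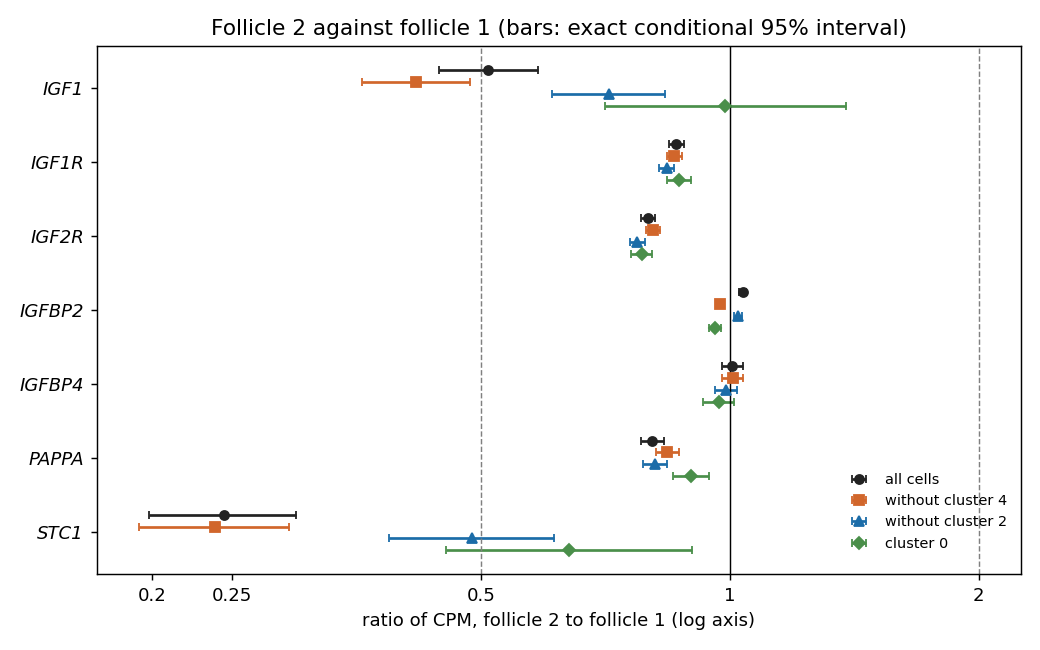
Ratio of CPM of follicle 2 to follicle 1 (log axis) for the 7 members with enough UMIs, over all cells, without cluster 4, without cluster 2, and within cluster 0, with exact conditional 95% intervals. Dashed lines mark ratios of 0.5 and 2. STC1 lies at 0.244 over all cells and 0.488 without cluster 2, IGF1 moves between 0.418 and 0.987, and the other genes stay between 0.773 and 1.04.

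Cells were clustered without the members and without 53 other genes of the pathway, which gave 9 clusters. Cluster 0, led by TGFB3, ENPP2 and NPTX1, held 3308 cells of follicle 1 and 3630 of follicle 2. Cluster 1, led by INSIG1, DKK1 and the sterol enzyme genes SQLE, MVD and HMGCS1, held 3084 and 2426. Cluster 2 was cumulus-like in follicle 1: SHAS2 was among its leading genes, and 7 matched cumulus markers summed to 11087 CPM there. In follicle 2 they summed to 2260 CPM, the highest sum of that follicle, but 5 mural markers summed to 5024 CPM. Of the cumulus markers SLC38A3 was at 0 in both follicles, and PTGS2 and GREM1 in follicle 2. Cluster 2 held 1607 cells of follicle 1 and 138 of follicle 2. Cluster 3, led by the steroidogenic gene STAR, held 618 and 448 cells, and cluster 5, the cycling-like cells led by TOP2A, held 452 and 121. Cluster 6, led by ALDH1A2, held 179 and 176. TECR led cluster 7, of 87 and 199 cells, which was low in mitochondrial UMIs (medians of 0.552% and 0.647%). FABP4, an unnamed gene, PLD4, BLNK and CXCL10 led cluster 8, of 27 and 32 cells. Its 6 matched interferon markers summed to 10538 CPM in follicle 1 and 4686 CPM in follicle 2. In cluster 8 immune markers summed to 18.0 CPM in follicle 1 and 742 CPM in follicle 2. Cluster 4 held 673 cells of follicle 2 and 0 of the 9362 cells of follicle 1, which allows a share of up to 0.0320% by a limit of 3 counts and 0.0394% by the upper end of the 95% interval.

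Cluster 4 stood apart from the other cells of follicle 2 and was left unnamed. CCL26, CCDC80, CEMIP, CRABP2 and an unnamed gene led it. Its 8 granulosa markers all had UMIs but summed to 4639 CPM, against 23931 to 40109 CPM in the other clusters of follicle 2, and INHA stood at 2178 CPM, below its level in the immune barcodes. Its 10 theca or stroma markers other than INSL3 summed to 132 CPM, against 7.11 to 20.2 CPM in the other clusters of that follicle, with smooth muscle ACTA2 at 61.9 CPM. Immune markers summed to 16.0 CPM, with PTPRC at 0. Its cells had a median of 6418 UMIs. As it came from 1 library, the cell type and the library cannot be told apart.

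**Figure D2:**
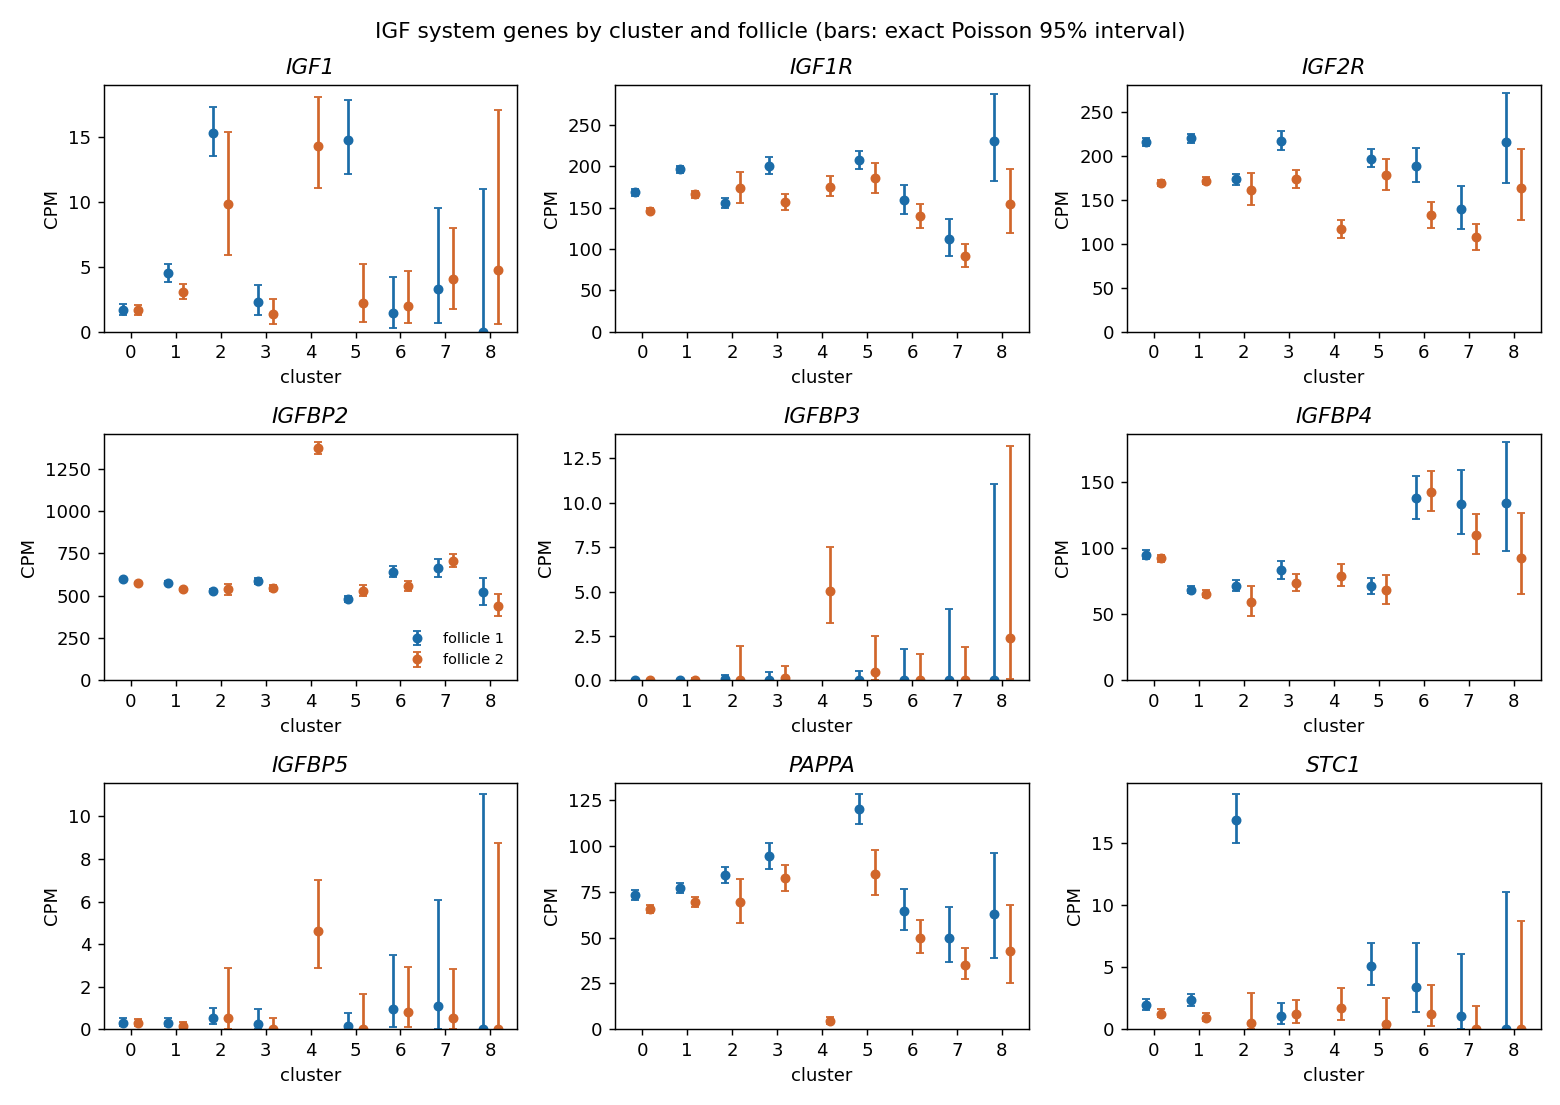
Level (CPM) of each of the 9 matched members in every cluster, with 1 point for each follicle and exact Poisson 95% intervals. IGF1 is high in clusters 2 and 4 and, in follicle 1, in cluster 5. IGFBP2 rises to 1372 CPM and PAPPA drops to 4.42 CPM in cluster 4, while STC1 reaches 16.9 CPM only in cluster 2 of follicle 1.

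IGF1, the ligand made locally by granulosa cells (ENSSSCG00000000857, chromosome 5, 81762027 to 81909253 of Sscrofa11.1), was read at low levels. It gave 626 UMIs in follicle 1, or 5.63 CPM (5.20 to 6.09), and 313 UMIs in follicle 2, or 2.87 CPM (2.56 to 3.21). The ratio of follicle 2 to follicle 1 was 0.511 (0.444 to 0.586), just short of the fold. It was nearer to 1 with cells thinned to 5000 UMIs, at 0.648 (0.521 to 0.803), and by per-cell means, at 0.603. A UMI of IGF1 was seen in 435 cells (4.65%) and 276 cells (3.52%), and in an expected 2.31% and 1.49% of cells at 5000 UMIs each. In the immune barcodes 2 of 5 and 2 of 25 held a UMI, with 13.3 CPM (1.61 to 48.2) and 18.8 CPM (3.87 to 54.9), so the shares over all cells are not above what such barcodes show. The level did differ among clusters of the same library, beyond counting error.

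In the integrated clustering, cluster 2 was higher than the other cells in both follicles, but its follicle 2 value rests on 19 UMIs. It held 15.4 CPM of IGF1 (13.6 to 17.3) in follicle 1 and 9.88 CPM (5.95 to 15.4) in follicle 2, which were 3.99-fold (3.39 to 4.69) and 3.60-fold (2.14 to 5.72) the level in the other cells. Of all genes, 1.18% were called higher in cluster 2 in both follicles. With doublets removed, or without integration, this call was lost. In the clusters that took most of its cells, those of follicle 1 then stood at 4.23-fold (3.53 to 5.05) and 3.61-fold (3.07 to 4.24), but those of follicle 2 numbered only 62 and 20, with 4 and 0 UMIs of IGF1. Another set with doublets removed, of 714 and 318 cells, drew 58.2% of its cells from cluster 2. In the integrated clustering with doublets left in, cluster 4 stood at 14.3 CPM (11.11 to 18.1), 6.08-fold (4.58 to 7.99) the other cells of follicle 2. Clusters 2 and 4 of follicle 2 did not differ beyond their intervals. Cluster 0 was lower in both follicles, at 1.67 CPM (1.29 to 2.13) and 1.65 CPM (1.32 to 2.03), where 2.52% of all genes were called lower, and so was cluster 3, at 2.26 and 1.35 CPM, where 1.26% were. Without cluster 4, the lower calls of clusters 0 and 3 in follicle 2 were lost and only the higher level in cluster 2 was still called.

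The cycling-like cluster 5 differed between the follicles. It held 14.8 CPM of IGF1 (12.1 to 17.9) in follicle 1, from 108 UMIs, and 2.24 CPM (0.729 to 5.24) in follicle 2, from 5 UMIs. The intervals do not overlap, but the gene was below the minimum of 200 UMIs there. The cumulus markers of this cluster summed to 5181 CPM in follicle 1 and 663 CPM in follicle 2. Clusters 2 and 5 together gave 59.4% of the IGF1 UMIs of follicle 1 and 7.67% of those of follicle 2, while cluster 4 gave 21.7% in follicle 2. Within cluster 0, the largest, the level of IGF1 did not differ between the follicles, with a ratio of 0.987 (0.707 to 1.38). Without cluster 2 the ratio over all cells was 0.714 (0.610 to 0.835), and without cluster 4 it was 0.418 (0.359 to 0.485). Without both clusters it was 0.574 (0.484 to 0.680). Their part in the difference was not tested beyond these values.

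No member other than IGF1 was called in both follicles in any cluster against the other cells. Beside the shares given above, all genes were called higher in cluster 0 at 0.309%, cluster 1 at 0.0562%, cluster 3 at 0.468%, cluster 7 at 0.0281% and cluster 8 at 0.609%, and lower in cluster 1 at 1.15%, cluster 2 at 1.13% and cluster 6 at 1.1%.

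The receptors were detected in most cells. IGF1R (ENSSSCG00000030560, chromosome 1, 137383623 to 137691038), the tyrosine kinase that passes on the IGF signal, stood at 180 CPM (177 to 182) in follicle 1 and 155 CPM (153 to 157) in follicle 2. The ratio of follicle 2 to follicle 1 was 0.862 (0.844 to 0.880). A UMI was seen in 81.5% and 80.5% of cells, against 1 of 5 and 5 of 25 immune barcodes, and in an expected 56.7% and 51.3% at equal depth. The immune barcodes held 39.99 CPM (14.7 to 87.0) and 62.6 CPM (30.0 to 115), below the levels in cells. No cluster was past the fold in both follicles. Cluster 7 was lowest, at 112 CPM (91.4 to 136) and 91.3 CPM (78.4 to 106), with 0.620-fold and 0.584-fold the level in the other cells. In cluster 4 IGF1R stood at 176 CPM (164 to 188), 1.14-fold (1.06 to 1.22) the other cells of follicle 2.

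IGF2R (ENSSSCG00000004044, chromosome 1, 7369485 to 7472480) was likewise broad, at 208 CPM (205 to 211) and 166 CPM (163 to 168). The ratio was 0.797 (0.781 to 0.813), and the 2 largest clusters gave 0.783 (0.759 to 0.806) and 0.781 (0.756 to 0.808). A UMI was seen in 86.2% and 82.1% of cells, and in an expected 62.3% and 53.4% at equal depth. These shares and the CPM were lower in follicle 2 alike. Among the clusters, 7 stood lowest in both follicles, at 139 and 107 CPM, while cluster 4 stood at 116 CPM (107 to 127), 0.693-fold (0.636 to 0.754) the other cells. The values of clusters 4 and 7 in follicle 2 overlap.

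Of the 4 binding proteins, IGFBP2 and IGFBP4 were expressed and IGFBP3 and IGFBP5 were close to the limit of detection. IGFBP2 (ENSSSCG00000035392, chromosome 15, 118822092 to 118850985), a carrier of IGF1 and IGF2, had 574 CPM (569 to 578) in follicle 1 and 595 CPM (590 to 599) in follicle 2. A UMI was seen in 98.2% and 99.1% of cells. The ratio of follicle 2 to follicle 1 was 1.04 (1.02 to 1.05), and 0.974 (0.964 to 0.986) without cluster 4, so its direction rested on that cluster. Outside cluster 4, the clusters ranged from 481 to 663 CPM in follicle 1 and from 441 to 706 CPM in follicle 2. In cluster 4 IGFBP2 stood at 1372 CPM (1339 to 1406), 2.45-fold (2.39 to 2.52) the other cells, and it was seen in 665 of the 673 cells. The immune barcodes of the same library held 131 CPM (81.3 to 201), far below.

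The 250 bases before the start of IGFBP2 are shown because this gene was past the fold in cluster 4 (RefSeq, Sscrofa11.1, chr15:118821842-118822091, plus strand). The capitals mark a GC box, GGGCGG, 65 bases before the start:

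IGFBP2 upstream: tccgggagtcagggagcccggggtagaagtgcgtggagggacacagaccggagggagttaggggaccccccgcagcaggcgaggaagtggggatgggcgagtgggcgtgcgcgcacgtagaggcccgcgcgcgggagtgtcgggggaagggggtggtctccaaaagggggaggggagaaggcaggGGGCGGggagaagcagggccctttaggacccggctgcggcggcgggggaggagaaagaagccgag

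Motifs searched on both strands were GGGCGG, the forkhead motif GTAAACA, the nuclear receptor half-site AGGTCA, the cAMP response element TGACGTCA and the TATA box TATAAA. Of 19569 pig promoters of this length, 45.9%, 2.28%, 12.3%, 1.70% and 9.77% held them. The IGFBP2 window held the GC box and none of the others, and 71.2% of its bases were G or C, against a median of 57.6%. A match describes the letters and does not show that a factor binds.

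IGFBP4 (ENSSSCG00000017472, chromosome 12, 21966524 to 21980043), the binding protein that PAPPA cuts, had 81.6 CPM (80.0 to 83.3) and 82.2 CPM (80.5 to 83.9), and the follicles did not differ, with a ratio of 1.01 (0.978 to 1.04). It was seen in 44.6% and 44.8% of cells, and in an expected 27.3% and 26.7% at equal depth. The immune barcodes held 60.0 CPM (27.4 to 114) in follicle 1, an interval that includes the level in cells, and 25.02 CPM (6.82 to 64.1) in follicle 2, which does not. Cluster 6 was highest in both follicles, at 138 CPM (122 to 155) and 143 CPM (128 to 159), with 1.71-fold and 1.77-fold the other cells. In follicle 1 clusters 7 and 8 overlapped it, at 134 and 135 CPM. No cluster was past the fold. Cluster 4 stood at 79.3 CPM (71.5 to 87.8), 0.964-fold (0.867 to 1.07) the other cells, so IGFBP4 did not move there with IGFBP2.

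IGFBP3 (ENSSSCG00000038783, chromosome 18, 50002921 to 50009425), the main IGF carrier of serum, gave 1 UMI in follicle 1 and 28 in follicle 2, too few for a call. Of the 28, 24 lay in cluster 4, in 20 cells, at 5.05 CPM (3.24 to 7.52), while clusters 0 and 1 of follicle 2 held 0 and 1 UMIs. IGFBP5 (ENSSSCG00000025924, chromosome 15, 118861816 to 118877787), another PAPPA substrate, gave 37 and 47 UMIs, or 0.333 CPM (0.234 to 0.459) and 0.432 CPM (0.317 to 0.574). In follicle 2, 22 of the 47 lay in 5 cells of cluster 4, and 17 of the 47 lay in 1 cell. IGFBP3 was thus seen mainly in the follicle 2 cells that were high in IGFBP2, while IGFBP5 there rested on very few cells.

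PAPPA (ENSSSCG00000005498, chromosome 1, 256544496 to 256784813), the metalloproteinase that frees IGF from IGFBP4, had 80.2 CPM (78.6 to 81.9) in follicle 1 and 64.7 CPM (63.2 to 66.2) in follicle 2. The ratio was 0.806 (0.781 to 0.832), and 0.897 (0.853 to 0.943) within cluster 0. A UMI was seen in 53.5% and 50.7% of cells, and in an expected 30.8% and 25.4% at equal depth. In follicle 1 the immune barcodes held 4 UMIs, or 26.7 CPM (7.26 to 68.3), and in follicle 2 they held 3, or 18.8 CPM (3.87 to 54.9), both below the level in cells. The cycling-like cluster 5 was highest, at 120 CPM (112 to 128) and 84.8 CPM (73.1 to 97.8), though in follicle 2 cluster 3 overlapped it at 82.4 CPM (75.6 to 89.5). Cluster 7 was lowest among the clusters present in both follicles, at 49.996 CPM (36.6 to 66.7) and 35.0 CPM (27.2 to 44.3).

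In cluster 4 PAPPA was nearly missing. It gave 21 UMIs in 21 of the 673 cells, or 4.42 CPM (2.74 to 6.76), which was 0.0655-fold (0.0405 to 0.100) the 67.4 CPM of the other cells. This is not above its level in the immune barcodes of follicle 2, but the 3 UMIs there all lay in 1 of 25 barcodes. That level is too uncertain to say whether PAPPA was expressed over free RNA in cluster 4. Over all genes tested in this cluster, 22.8% were called higher and 8.9% lower, and of the 7 members 2 were higher, IGF1 and IGFBP2, and 1 was lower, PAPPA. With so few genes these counts do not set the list apart from all genes. Between the cells of cluster 4 and the rest, the ligand and a binding protein were high where the protease was low. The IGF1 level of cluster 4 was likewise not above that in the immune barcodes of follicle 2. They held 18.8 CPM (3.87 to 54.9) of IGF1, from 3 UMIs.

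The window before PAPPA is shown because the gene was the member called lower in cluster 4 (RefSeq, Sscrofa11.1, chr1:256544246-256544495, plus strand). The capitals mark TGTTTAC, the forkhead motif GTAAACA read on the other strand, 104 bases before the start:

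PAPPA upstream: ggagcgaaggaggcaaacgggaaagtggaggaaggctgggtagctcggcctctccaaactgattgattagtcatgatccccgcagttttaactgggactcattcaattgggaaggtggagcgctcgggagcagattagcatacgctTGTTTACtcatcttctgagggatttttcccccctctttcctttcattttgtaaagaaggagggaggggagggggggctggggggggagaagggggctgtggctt

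None of the other 4 motifs lay in this window, and 54.0% of its bases were G or C. The forkhead letters stood in 2.28% of all promoters, and their presence says nothing of use by a factor.

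STC1 (ENSSSCG00000009642, chromosome 14, 7952175 to 7961365), the stanniocalcin that blocks PAPPA, gave 506 UMIs in follicle 1, or 4.55 CPM (4.16 to 4.96), and 121 in follicle 2, or 1.11 CPM (0.922 to 1.33). The ratio of 0.244 (0.199 to 0.298) is the call named above. A UMI was seen in 283 cells (3.02%) and 95 cells (1.21%), and in an expected 1.70% and 0.527% at equal depth. The immune barcodes held 0 UMIs, which is no close limit, as 3 counts there would be 19.996 and 18.8 CPM. At such levels, as for IGF1, a cell without a UMI may still express the gene.

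Most of the difference lay in cluster 2, which was cumulus-like in follicle 1. There STC1 stood at 16.9 CPM (15.0 to 18.9) in follicle 1, from 290 UMIs in 135 of 1607 cells, and at 0.520 CPM (0.0132 to 2.90) in follicle 2, from 1 UMI in 138 cells. The cells of the 2 follicles in this cluster also differed in markers: 5 mural markers summed to 1394 CPM in follicle 1 and 5024 CPM in follicle 2, and the cumulus markers to 11087 and 2260 CPM. The ratio with its counting interval was 0.0308 (0.000778 to 0.173), in a cluster where 6.91% of genes were called between the follicles. In follicle 1 this was 7.35-fold (6.14 to 8.81) the level in the other cells, whereas in follicle 2 it was 0.464-fold (0.0116 to 2.63), so no cluster was called for STC1 in both follicles. Cluster 5 followed the same order, with 37 UMIs in follicle 1 and 1 UMI in follicle 2, or 5.07 CPM (3.57 to 6.98) and 0.449 CPM (0.0114 to 2.50). Clusters 2 and 5 gave 64.6% of the STC1 UMIs of follicle 1 and 1.65% of those of follicle 2.

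Outside these clusters the gap was smaller. In cluster 0 STC1 stood at 1.98 CPM (1.56 to 2.47) and 1.26 CPM (0.978 to 1.61), a ratio of 0.640 (0.453 to 0.900), and in cluster 3 at 1.07 and 1.20 CPM, with 8 UMIs each. Without cluster 2, but with cluster 5 kept, the ratio over all cells was 0.488 (0.387 to 0.613). A ratio without both was not computed. Of the members with at least 200 UMIs in cluster 0, 5 in all, 0 were called between the follicles, against 0.285% of 8760 genes. STC1 was not among those 5, with 77 and 66 UMIs. In the same way 0 of 5 members were called between the follicles in cluster 1, 0 of 5 in cluster 3, 0 of 4 in cluster 6 and 0 of 3 in cluster 7, against 0.57%, 0.171%, 0.299% and 0.34% of genes. In cluster 5 it was 0 of 5, against 2.89%, and in cluster 2 it was 1 of 7, STC1, against 6.91%. In cluster 8, where 5.1% of genes were called, no member had enough UMIs.

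**Figure D3:**
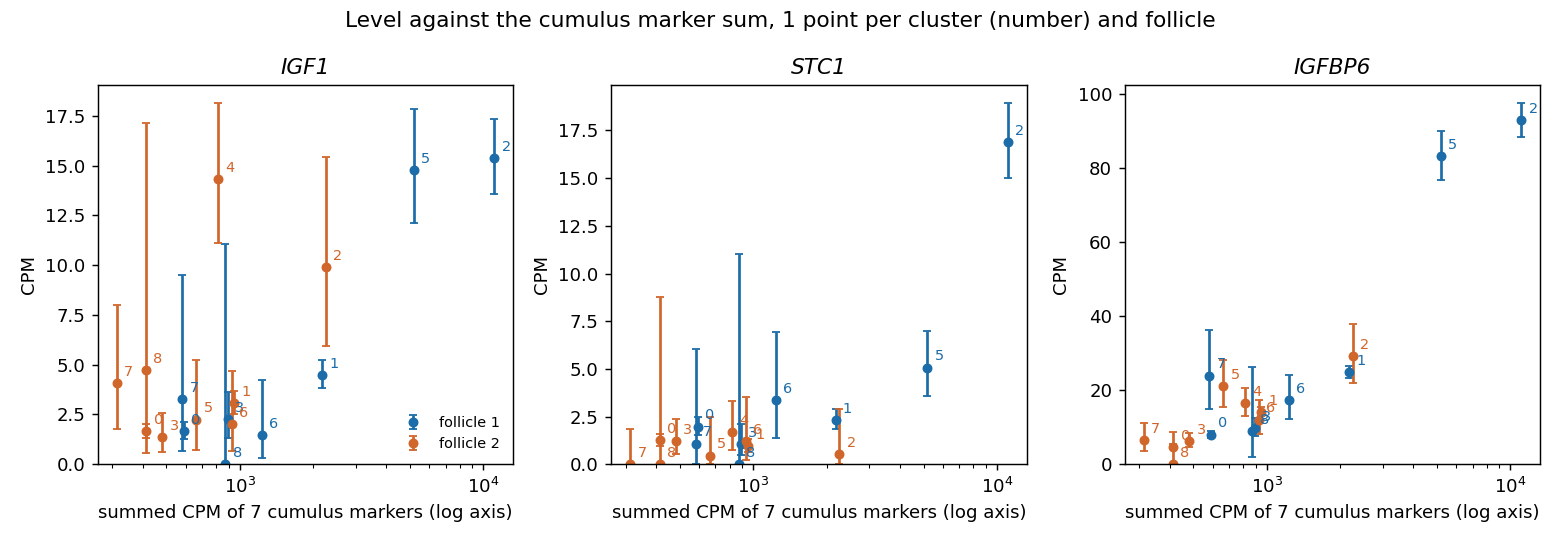
Level (CPM, exact Poisson 95% interval) of IGF1, STC1 and IGFBP6 against the summed CPM of 7 cumulus markers (log axis), with 1 point per cluster and follicle, numbered by cluster. Clusters 2 and 5 of follicle 1 lie at the right of each panel and are high in IGF1 and IGFBP6. STC1 reaches 16.9 CPM in cluster 2 of follicle 1, and cluster 4 is high in IGF1 without a high cumulus sum.

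When the follicles were clustered without integration, cluster 2 came apart. The clusters drawn mostly from it then held 1812 and 398 cells of follicle 1 but 20 and 0 of follicle 2, so most of its 138 follicle 2 cells shared a cluster with those of follicle 1 only after integration. The ratio of STC1 between the follicles in cluster 2 therefore does not compare cells known to be of 1 class. A set of 398 cells of follicle 1, all from cluster 2, then held 34.5 CPM of STC1, 10.6-fold (8.74 to 12.8) the other cells, from 159 UMIs. The same cells held 276 CPM of IGFBP2, 0.470-fold (0.445 to 0.497) the other cells, and 7.16 CPM of IGF1, 1.29-fold (0.878 to 1.83). This set of cluster 2 cells, high in STC1, was thus low in IGFBP2 and not past the fold in IGF1. Over single cells, IGF1 was seen in 7.07% of the follicle 1 cells with STC1 and in 4.57% of those without, at median depths of 11753 and 11234 UMIs. In follicle 2 the order was opposite, with 2.11% of the 95 cells with STC1 and 3.54% of those without. Under the same clustering 90 cells of follicle 2, mostly of cluster 1, held 18.7 CPM of IGF1 from 28 UMIs.

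Of 57 other genes of IGF and insulin signalling listed, 53 were matched and 38 had enough UMIs. IGFBP6, a binding protein that prefers IGF2, was the 1 called between the follicles, against 2.49% of all genes, so the share called is close to that background. IGFBP6 stood at 32.1 CPM in follicle 1 and 9.40 CPM in follicle 2, a ratio of 0.293 (0.273 to 0.314). The median log2 ratio over the 38 was 0.00, like that of all genes. The 10 with most UMIs were IGFBP7, EIF4EBP1, CTSD, INSL3, GRB2, GRB14, RHEB, HTRA1, PIK3CA and GSK3B, and 8 of them had ratios between 0.824 and 1.09. IGFBP7, a low-affinity IGF binder, stood at 1134 and 1874 CPM, a ratio of 1.65 (1.64 to 1.66), and INSL3, an insulin-like peptide, at 307 and 496 CPM, a ratio of 1.62 (1.59 to 1.64). INS, IGFBP1, IGFBPL1, IGF2BP1 and RXFP1 gave 0 UMIs in both follicles, where 3 UMIs would be 0.0270 and 0.0275 CPM. STC2, the other stanniocalcin, gave 59 UMIs in follicle 1 and 3 in follicle 2.

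IGFBP6 shared its clusters with IGF1 and STC1 of follicle 1. It was called higher in cluster 2 in both follicles, at 92.8 CPM (88.3 to 97.5) and 29.1 CPM (22.0 to 37.8), and in cluster 5, at 83.1 and 21.1 CPM, where 3.31% of all genes were. It was called lower in cluster 0, at 8.03 and 4.73 CPM. Clusters 2 and 5 gave 61.7% of its UMIs in follicle 1 and 10.1% in follicle 2. ADAM12, a protease that cuts IGFBP3 and IGFBP5, was called lower in cluster 0 and higher in cluster 5 as well. Elsewhere INSL3 was called lower in cluster 5 (1.03% of all genes), IGF2BP2 higher in cluster 6 (1.12%), SOS1 and RICTOR lower in cluster 7 (3.99%) and IGFBP6 lower in cluster 8 (0.0937%).

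Without clusters 2 and 4 IGFBP6 was still called between the follicles, but that comparison kept cluster 5. The cumulus markers of cluster 5 summed to 5181 CPM in follicle 1 and 663 CPM in follicle 2. Leaving it out as well was not tested. The cumulus marker sum of cluster 2 differed in the same direction, 11087 against 2260 CPM, and the part of that difference in these values was not tested.

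In cluster 4 some of the other pathway genes were called in each direction and many were not. Of 40 with at least 200 UMIs over both follicles, 15 were called higher and 5 lower than in the other cells of follicle 2, against 22.8% and 8.9% of all genes, and 20 were not called. FOXO1, the transcription factor that insulin and IGF signals hold out of the nucleus, stood at 505 CPM, 12.8-fold (12.1 to 13.4) the other cells. INSR, the insulin receptor, stood at 63.3 CPM, 10.6-fold (9.21 to 12.2), and the receptor substrate IRS1 at 29.9 CPM, 8.67-fold (7.09 to 10.6). ADAM12 stood at 36.4 CPM, 17.01-fold (13.9 to 20.8). Among the others that were higher were IRS2, GRB14, SOS1, PIK3R1, PIK3R2, AKT2, RICTOR, FOXO3, FOXO4 and HTRA1, a serine protease that cuts IGF binding proteins.

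The 5 called lower were INSL3, IGFBP7, IGF2BP2, PIK3CA and EIF4EBP1. INSL3 stood at 35.8 CPM against 517 CPM in the other cells, and IGFBP7 at 346 against 1944 CPM. EIF4EBP1, the repressor of translation that mTOR acts on, stood at 182 against 888 CPM, and PIK3CA, the catalytic subunit of PI3-kinase, at 50.1 against 147 CPM. FOXO1 over all cells stood at 32.4 and 59.9 CPM, a ratio of 1.85 (1.77 to 1.93), and at 37.5 and 38.4 CPM within cluster 0, a ratio of 1.02 (0.957 to 1.10). It was called higher in follicle 2 within cluster 2, at 17.9 and 63.5 CPM, and within cluster 5, at 29.3 and 67.8 CPM, where 6.91% and 2.89% of genes were called in either direction. As for STC1, the ratio in cluster 2 does not compare cells known to be of 1 class. In cluster 5 the cumulus markers differed too, at 5181 CPM in follicle 1 and 663 CPM in follicle 2.

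**Figure D4:**
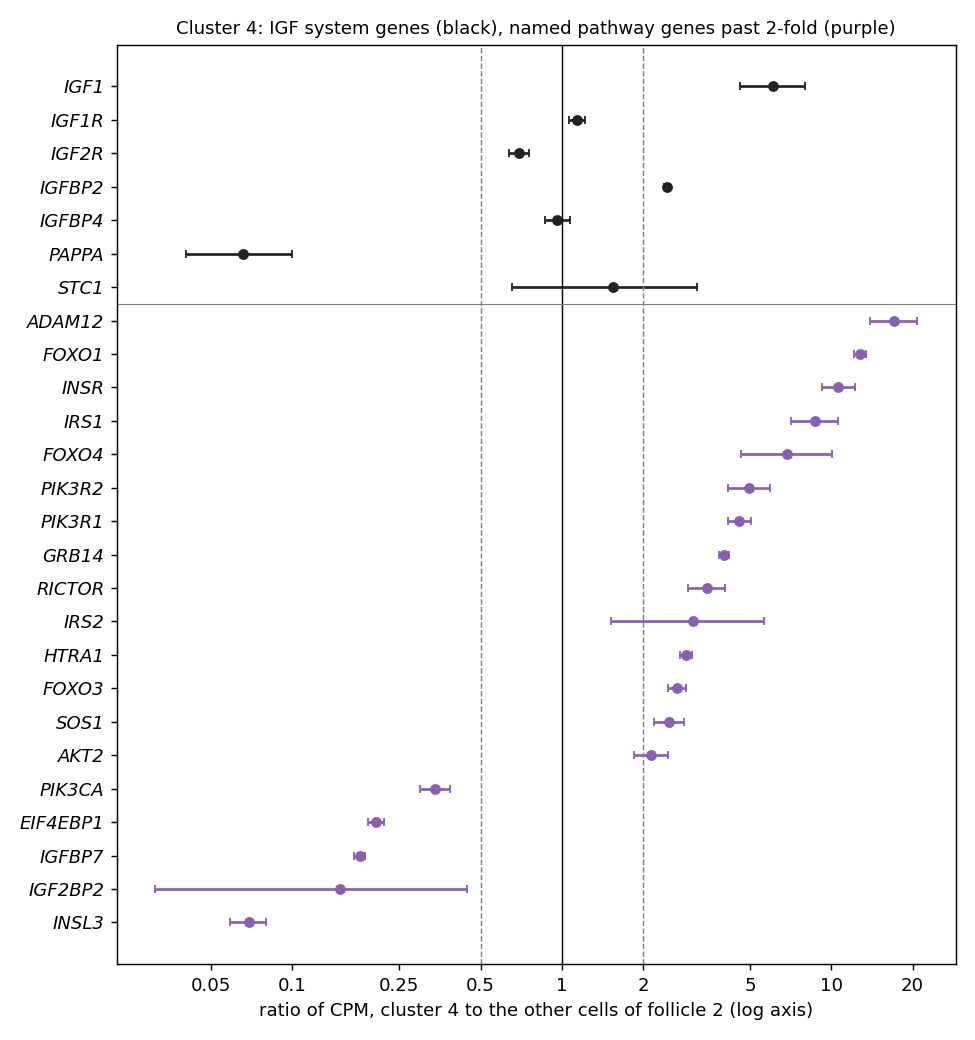
Ratio of CPM in cluster 4 to the other cells of follicle 2 (log axis, exact conditional 95% intervals) for the 7 members (black) and the other pathway genes past the fold that are named here (purple). Dashed lines mark 0.5 and 2. IGF1 at 6.08 and IGFBP2 at 2.45 lie above 2, PAPPA at 0.0655 lies far below 0.5, and ADAM12, FOXO1 and INSR lie above 10.

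Correlations between members over single cells were weak. Pearson's r of log2(1 + UMIs per 10000) was computed for 21 pairs of members in each follicle and lay between -0.12 and 0.11, the lowest being that of IGFBP2 with PAPPA in follicle 2. Among 8552 genes seen in at least 5% of cells, those most like IGF1R were CCDC88A, at r of 0.178 and 0.165, PDCD4 and GJA1. Those most like IGF2R were SCARB1, at 0.157 and 0.170, TP53BP2 and CCDC88A. ITM2B, at 0.157 and 0.273, PSAP and DKK3 were most like IGFBP2, and CALR, at 0.100 and 0.105, GPC1 and HSP90B1 most like IGFBP4. PAPPA was most like ENSSSCG00000031287, at 0.271 and 0.347, BMPR1B and PGR. The cells share library, depth and free RNA, counts are sparse, and these weak values are given as a description only.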

How the data were processed

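The authors deposited, for each barcode that CellRanger 6.0.2 called on Sscrofa11.1, the whole count of UMIs per Ensembl gene, with no filter on cells and no normalization. The deposited names link the follicles to the libraries. The gene list repeats the identifier in place of a symbol for 7356 genes, and a reference table of the same assembly named 1042 of these. IGF2 and the level of 1 pathway gene are not reported here.

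Barcodes with 2000 to 5000 genes and under 7% of UMIs from 13 mitochondrial genes were used, and doublets were left in. Total UMIs were 125409747 from 14289 barcodes in follicle 1 and 127414267 from 15548 in follicle 2. Clusters came from R 4.3.3 with Seurat 5.3.0, Matrix 1.6.5 and SeuratObject 5.2.0: log normalization to 10000 UMIs, 2000 variable genes without the IGF and insulin pathway, anchor integration, 40 components, and the lowest resolution in steps of 0.02 with at least 9 clusters, which was 0.44. UMIs were summed over cells and divided by their total in Python 3.11.15 with pandas 2.3.3, numpy 2.4.6, scipy 1.17.1, matplotlib 3.10.9 and scikit-learn 1.9.0. Shares have Clopper-Pearson intervals, ratios have exact conditional ones and CPM have exact Poisson ones, all at 95%. A cluster was compared with the other cells of its follicle where it held at least 20 cells there, and called where every such follicle passed the fold. Genes needed 200 UMIs in a follicle, or over both in cluster comparisons. Shares at equal depth are expectations at 5000 UMIs per cell, without 19 and 105 shallower cells. On simulated data for the comparison of the follicles, with Poisson counting error only, 200 of 9940 genes were given a log2 change of 2. Of these 100% were recovered with 0 false calls. This checks the calculation and says nothing of differences between replicate follicles.

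Named are all members, every pathway gene past the fold between follicles, the 10 pathway genes of most UMIs, the 3 genes most like each member seen in at least 20% of cells, and the leading genes of each cluster. FOXO1 and the pathway genes named for cluster 4 were added after their values were seen, as were the 5 genes at 0, STC2 and the rule for immune barcodes. The members and lists were chosen with earlier results of these data known. Alternatives were removal of the 6.9% of cells with the highest doublet score (a score like that of DoubletFinder but computed here), 500 to 6000 genes, a mitochondrial limit of 10%, all barcodes, other library sizes, per-cell means, thinned cells, no UMI filter, 6 clusters, no integration and another seed. Leaving out clusters 2 and 4 was added after seeing the data.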

Additional observations from a re-analysis of the deposited data

Results flagged for a closer look

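The 8 results here are small and were singled out because the same contrast ran in opposite directions, with intervals that exclude 1 on both sides. The differences between the directions were not tested, and no ratio passed 2-fold. IGF1R in cluster 2 was 0.841-fold (0.807 to 0.876) the other cells in follicle 1 and 1.12-fold (1.00 to 1.25) in follicle 2. IGFBP2 in cluster 0 was 1.07-fold and 0.933-fold the other cells, and in cluster 6 it was 1.12-fold and 0.934-fold. In follicle 2 the other cells include cluster 4, where IGFBP2 stood at 1372 CPM. PAPPA in cluster 1 was 0.940-fold in follicle 1 and 1.11-fold in follicle 2, where the other cells include the 4.42 CPM of cluster 4.

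Between the follicles, IGFBP2 in the cycling-like cluster 5 had a ratio of follicle 2 to follicle 1 of 1.10 (1.03 to 1.18). In cluster 0 it was 0.959 and in cluster 1 it was 0.930, while clusters 3 and 6 had ratios of 0.929 and 0.865. Its direction in cluster 5 was therefore opposite to that in 4 other clusters.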

How the results depend on the processing

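No paired analysis was possible because each follicle is 1 library and the numbers of the follicles mark no pairs. The count of members past the fold between follicles was 1 and stayed 1 except with no filter on UMIs and without cluster 4, where it was 2, with IGFBP3 or IGF1 added. The count of other pathway genes was 1, and 2 with 500 to 6000 genes, all deposited barcodes or thinned cells, where FOXO1 was added. It was 3 with no filter on UMIs and 3 with per-cell means. The count within the largest cluster was 0 under all its alternatives. The 6 gene and cluster pairs became 13 without integration, 10 with doublets removed and 1 without cluster 4. The first 2 settings divided cluster 4 and left a set of 32 or 29 cells, in which IGF1R, IGF2R and IGFBP4 were called lower too, and under both the higher IGF1 of cluster 2 was no longer called in both follicles. Without integration IGF1R stood there at 60.6 CPM, IGF2R at 47.8 CPM and IGFBP4 at 38.3 CPM. Of 88 single-gene ratios under an alternative, 59 stayed within the interval of the reported ratio and 29 left it. Without cluster 4 IGFBP2, not past the fold, was lower in follicle 2, and the ratio of IGFBP5 was 0.721 (0.416 to 1.23), an interval that includes 1. STC1 stayed below a log2 ratio of -1.03. Levels under about 1 CPM, such as those of IGFBP3 and IGFBP5, rest on few UMIs. With 1 library per follicle, differences between replicate follicles were not measured.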

Other observations

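Barcodes outside the limits on cells held the members too. Barcodes with more than 5000 genes, 137 and 164 without immune markers, held 3.06 CPM (1.67 to 5.13) of STC1 in follicle 1 and 5.71 CPM (3.85 to 8.14) in follicle 2, from 14 and 30 UMIs, so the order seen in the cells was not seen there. PAPPA stood at 93.4 and 69.0 CPM in these barcodes. Barcodes with fewer than 2000 genes, 2609 and 6448, held 357 CPM of IGFBP2 in follicle 1 and 568 CPM in follicle 2, with PAPPA at 45.0 and 22.9 CPM. IGF1 stood there at 8.73 CPM (6.24 to 11.9) and 7.43 CPM (5.86 to 9.30), intervals that overlap. Both values lay above the cells of the same follicle, at 5.63 CPM (5.20 to 6.09) and 2.87 CPM (2.56 to 3.21). IGFBP2 and PAPPA lay below their levels in cells in both follicles. IGFBP3 gave 14 UMIs in such barcodes of follicle 2 and 0 in those of follicle 1.

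Barcodes with 7% mitochondrial UMIs or more, 2178 and 1077, held 116 CPM (107 to 126) of PAPPA and 270 CPM (256 to 285) of IGF2R in follicle 1. In follicle 2 these were 88.7 CPM (78.3 to 100.2) and 181 CPM (166 to 197). PAPPA was higher there than in the cells of the same follicle. IGF2R was too in follicle 1, while in follicle 2 its interval overlapped that of the cells, 166 CPM (163 to 168).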
